A study of Homo sapiens with 6 samples.

Results

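The receptors described here were 10 genes, the neuropilins NRP1 and NRP2 and the plexins PLXNA1, PLXNA2, PLXNA3, PLXNA4, PLXNB1, PLXNB2, PLXNC1 and PLXND1. They were taken by gene name from a table of 33900 genes, and each name matched 1 row. RNA sequencing was done on LX-2, a single established line of human hepatic stellate cells of wild-type genotype grown in DMEM with fetal bovine serum. Samples (n = 3) were taken from cells given 300 ng/ml of rhSema3C, recombinant human Sema3C protein, for 48 h. They were set against samples (n = 3) of cells given PBS, the control, for the same time. The question put to these genes was how much of each receptor for a semaphorin ligand the line expressed, and whether 48 h of that ligand changed it.

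Neuropilins are single-pass membrane proteins with a short cytoplasmic tail that bind secreted class 3 semaphorins such as Sema3C and also members of the VEGF family. They form complexes with plexins, whose intracellular part acts on small GTPases and so alters the cytoskeleton and the attachment of cells. Class A plexins are the usual signalling partners of neuropilins, while class B plexins mainly bind class 4 semaphorins, PLXNC1 binds SEMA7A and PLXND1 can bind SEMA3E without a neuropilin. In the liver, stellate cells become contractile, collagen-producing cells when activated, and NRP1 is known there as a co-receptor for growth factors.

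The libraries held between 68267808 and 89245585 counts on genes. VIM, a mesenchymal marker, had 1035 ± 36.5 FPKM with PBS (fragments relative to exonic length and library size, SD, n = 3), and the collagen gene COL1A1 had 96.0 ± 6.80 FPKM. Among the 12 stellate cell markers examined, COL1A2, HGF, DES and LRAT were at or near 0 (0.130, 0.102, 0.00721 and 0 FPKM with PBS). The summed level of these 12 markers ran from 1208 to 1276 FPKM with PBS and from 937 to 996 FPKM with rhSema3C, and most of it was VIM. Of the 7 markers high enough to be tested, 5 were called lower and 1 higher, where 30.6% and 31.7% of all genes tested were. TAGLN fell from 58.4 to 9.66 FPKM (log2 fold change -2.70). COL1A1 (-0.78), ACTA2 (-0.56), VIM (-0.41) and COL3A1 (-0.36) were lower as well. The called rise was LOX, from 8.02 to 17.8 FPKM (1.05), and PDGFRB was not called (0.09). In the lists for other liver cells some markers were near 0, with 0.0103 FPKM for ALB of hepatocytes, 0.0583 for PECAM1 of endothelium, 0.00781 for EPCAM of cholangiocytes and 0.00414 for PTPRC of leukocytes with PBS. Others were not, with 93.4 FPKM for CD68, 9.94 for SOX9, 4.69 for CD14, 2.95 for KRT7 and 2.78 for SERPINA1. The summed level of the 5 immune markers, nearly all of it CD68, ran from 95.03 to 103.7 FPKM with PBS and from 67.2 to 73.0 FPKM with rhSema3C. For the 4 cholangiocyte markers the sum ran from 12.4 to 14.7 FPKM with PBS and from 8.60 to 9.31 FPKM with rhSema3C. The sums ran from 2.65 to 3.15 against 3.52 to 4.16 FPKM for the hepatocyte markers found in the table, and from 0.854 to 0.994 against 1.27 to 1.56 FPKM for the 5 endothelial markers, of which VWF went from 0.101 to 0.659 FPKM. Mitochondrial genes took between 4.75% and 5.42% of the counts with PBS and between 3.73% and 3.93% with rhSema3C. The part of these shifts in the receptor results was not tested, apart from a fit without the mitochondrial genes, which called the same receptor genes.

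The receptor genes lay on 8 chromosomes, and PLXNA1, PLXNB1 and PLXND1 lay at separate places on chromosome 3. In the coordinates of the table, which lie on GRCh38, NRP1 (ENSG00000099250) was at chr10:33177492-33336262 on the minus strand and NRP2 (ENSG00000118257) at chr2:205681990-205798133 on the plus strand. PLXNA1 (ENSG00000114554) was at chr3:126988594-127037392 (plus), PLXNA2 (ENSG00000076356) at chr1:208022242-208244384 (minus), PLXNA3 (ENSG00000130827) at chrX:154458281-154477779 (plus) and PLXNA4 (ENSG00000221866) at chr7:132123332-132577301 (minus). PLXNB1 (ENSG00000164050) was at chr3:48403854-48430086 (minus), PLXNB2 (ENSG00000196576) at chr22:50274979-50307646 (minus), PLXNC1 (ENSG00000136040) at chr12:94148577-94307675 (plus) and PLXND1 (ENSG00000004399) at chr3:129555214-129606676 (minus). Whether the counting used strand is not given in the sources used here, so reads of genes that overlap on opposite strands cannot be told apart. The largest such overlap covered 4.87% of the exonic bases of NRP1, with AL121748.2, which had a mean of 5.17 counts. PLXNC1 shared 177 exonic bases with CEP83 (1.18 FPKM), which was 1.79% of its exonic bases, and LAGE3 (11.6 FPKM) shared 11 with PLXNA3.

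The members differed in base composition, which bears on the results given further on. The GC content of the longest annotated transcript was 44.7% for NRP1, 46.9% for PLXNC1 and 50.4% for NRP2. It was 54.2% for PLXNA2, 57.4% for PLXNA3, 61.6% for PLXNA1, 62.3% for PLXNB1, 63.1% for PLXNB2 and 63.5% for PLXND1. PLXNA4 had 53.7%. The RefSeq promoter table (GRCh38.p14) held 9 of the 10 members, not NRP1, and 11 start sites for them, of which 5 coincided with the start of the gene in the deposited table. Shown here, 5′ to 3′ on the strand of the gene, are the 250 bases before the start of 3 of those 5. PLXNA2 is shown for the fall that held in both main forms of the test, and PLXNC1 and PLXND1 as the members of lowest and highest transcript GC content among the 5. Capitals mark the GC box, the letters GGGCGG on either strand, with overlapping matches joined.
PLXNA2: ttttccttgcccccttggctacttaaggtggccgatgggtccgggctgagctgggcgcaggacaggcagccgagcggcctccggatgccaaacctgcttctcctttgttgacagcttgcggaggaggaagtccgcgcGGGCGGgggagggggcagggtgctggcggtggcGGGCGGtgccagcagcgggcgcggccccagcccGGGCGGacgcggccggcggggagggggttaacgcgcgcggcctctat
PLXNC1: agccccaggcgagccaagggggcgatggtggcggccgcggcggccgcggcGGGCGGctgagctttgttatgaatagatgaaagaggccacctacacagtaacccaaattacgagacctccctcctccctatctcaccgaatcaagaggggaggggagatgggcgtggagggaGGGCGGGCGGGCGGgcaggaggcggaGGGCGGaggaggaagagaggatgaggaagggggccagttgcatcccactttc
PLXND1: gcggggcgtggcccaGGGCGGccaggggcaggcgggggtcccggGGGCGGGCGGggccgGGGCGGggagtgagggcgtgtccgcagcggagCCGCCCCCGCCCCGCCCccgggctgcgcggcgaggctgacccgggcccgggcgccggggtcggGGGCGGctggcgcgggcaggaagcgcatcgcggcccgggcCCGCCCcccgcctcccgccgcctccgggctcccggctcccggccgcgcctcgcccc

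These windows lie at chr1:208244385-208244634 (minus strand) for PLXNA2, chr12:94148327-94148576 (plus strand) for PLXNC1 and chr3:129606677-129606926 (minus strand) for PLXND1. Their GC contents were 72.4%, 65.2% and 88.8%, and the median over 35116 promoter windows of the same length was 58%. The GC box, a motif bound by factors of the Sp family, occurred 3 times before PLXNA2, 5 times before PLXNC1 and 9 times before PLXND1, and overlapping matches were counted separately. It was in 9 of the 11 windows of the members, and in 42.64% of all windows. The AP-1 letters TGANTCA were in 1 of the 11 windows, at a second start of PLXNC1, and in 6.573% of all windows. The E-box CACGTG was in 0 of the 11 and in 6.345% of all windows. These are letter matches on both strands and not measured binding.

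PLXNB2, a receptor of class 4 semaphorins, and NRP1 were the most abundant members in PBS-treated LX-2 cells by deposited FPKM. PLXNB2 had 35.3, 39.7 and 38.1 FPKM in PBS replicates 1, 2 and 3 (mean 37.7 ± 2.20, SD, n = 3). NRP1 had 21.6, 21.6 and 22.7 FPKM (22.0 ± 0.612), and the class A plexin PLXNA1 had 14.5, 17.4 and 17.3 FPKM (16.4 ± 1.63). No PBS sample of PLXNB2 was as low as any of NRP1, and none of NRP1 was as low as any of PLXNA1, so the first 3 places did not overlap. NRP2, the other neuropilin, was the fourth at 4.94 ± 0.399 FPKM, which was 3.33-fold below PLXNA1.

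PLXNA3, PLXND1 and PLXNB1 followed at 3.63 ± 0.490, 3.10 ± 0.315 and 2.89 ± 0.106 FPKM, and the neighbours in this run overlapped between samples. PLXNC1 at 1.22 ± 0.145 FPKM and PLXNA2 at 1.04 ± 0.115 FPKM overlapped as well. PLXNA4 was the lowest member at 0.0901, 0.0663 and 0.0710 FPKM, or 136, 82 and 82 counts, in the PBS replicates. With rhSema3C it had 0.0930, 0.0772 and 0.120 FPKM, so the groups overlapped, and it was the member that did not reach the mean of 0.5 FPKM needed for the test. In a fit of all genes with no minimum its log2 fold change was 0.23 (edgeR adjusted p = 0.57).

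**Figure D1:**
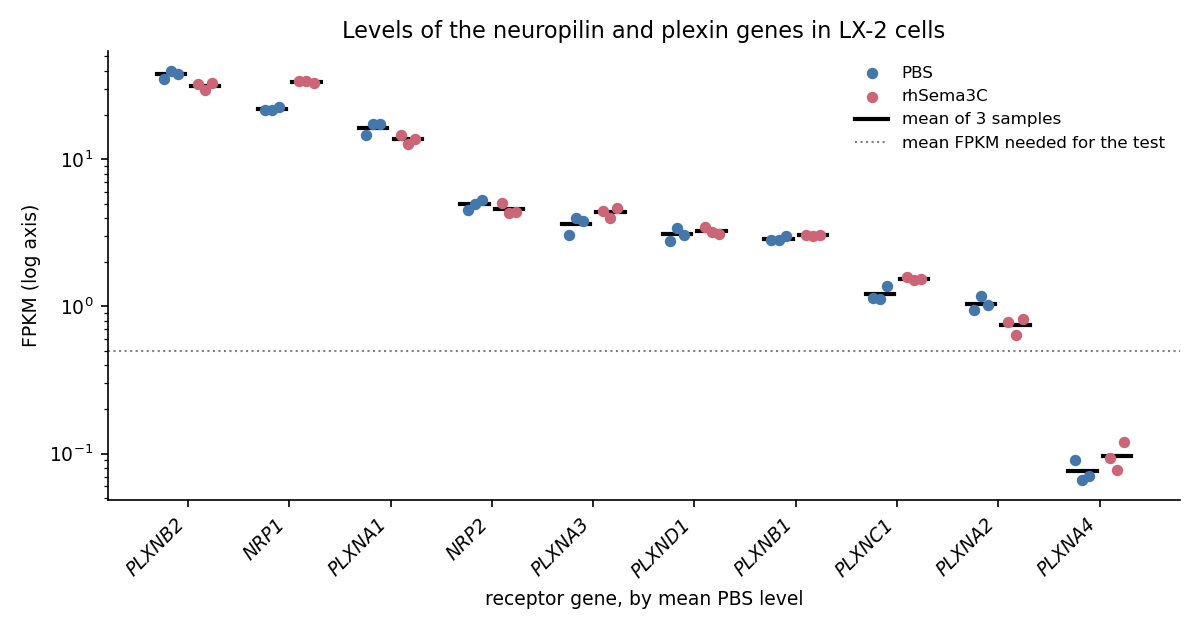
FPKM of the 10 receptor genes (log axis) in each of the 3 PBS and 3 rhSema3C samples, with a bar at each mean and a dotted line at the mean of 0.5 FPKM needed for the test. PLXNB2, NRP1 and PLXNA1 lie above 10 FPKM in every sample, PLXNA4 lies below the line in every sample, and NRP1 is first by its mean with rhSema3C.

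The order of the members rested in part on the length used for scaling. The lengths implied by the deposited counts and FPKM were 1.01 to 1.04 times the union of all annotated exons of a member, and 2.01 and 2.14 times the longest transcript for NRP1 and NRP2. For the plexins they were 1.10 to 1.40 times the longest transcript. Scaled to the longest transcript, an alternative chosen after the data were seen, NRP1 at 44.0 ± 1.23 and PLXNB2 at 44.0 ± 2.57 could not be separated with PBS, and PLXNA1 followed at 20.3 ± 2.01. NRP2 at 10.6 ± 0.854 stayed the fourth. PLXND1, PLXNA3 and PLXNB1, between means of 4.28 and 3.97, again overlapped from neighbour to neighbour.

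NRP1 rose with rhSema3C and was the receptor gene with the lowest p. NRP1 had 264.4, 267.6 and 277.3 CPM (counts scaled to the TMM-normalised library size) in PBS replicates 1, 2 and 3, and 392.2, 391.1 and 373.7 CPM in rhSema3C replicates 1, 2 and 3. Every rhSema3C sample lay above every PBS sample, and the difference was far larger than the spread within either group. This was a log2 fold change of 0.52 with a standard error of 0.04, or 1.43-fold with a 95% confidence interval of 1.34 to 1.52 (edgeR quasi-likelihood test, Benjamini-Hochberg adjusted p = 1.1e-06). By FPKM, whose scaling differs, NRP1 went from 22.0 ± 0.612 to 33.7 ± 0.822 (SD, n = 3), a larger rise than the CPM fit gave. In bulk RNA a change in the share of cells that express a gene and a change in its RNA per cell cannot be told apart. A larger rise than that of NRP1 was seen in 2219 of the 14178 genes tested.

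NRP2 moved the other way, less firmly. Its values were 67.0, 74.0 and 78.7 CPM with PBS, and 69.9, 59.3 and 60.6 CPM with rhSema3C. The groups overlapped, since rhSema3C replicate 1 was above PBS replicate 1. The log2 fold change was -0.21 (standard error 0.07, edgeR adjusted p = 0.028). The call was lost without PBS replicate 2, PBS replicate 3, rhSema3C replicate 2 or rhSema3C replicate 3, where the log2 fold change was -0.20, -0.16, -0.16 and -0.18.

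Of the class A plexins, which transmit the signal of neuropilin-bound semaphorins, PLXNA1 and PLXNA2 fell. PLXNA2 had 13.9, 17.4 and 15.0 CPM with PBS and 10.8, 8.90 and 11.3 CPM with rhSema3C. The groups did not overlap, and at a log2 fold change of -0.58 (standard error 0.12, edgeR adjusted p = 0.0016) this was the largest fall among the members. PLXNA1 had 169.3, 204.7 and 200.9 CPM with PBS and 158.7, 137.1 and 149.3 CPM with rhSema3C. Here too all 3 treated samples lay below the controls, with a log2 fold change of -0.37 (standard error 0.07, edgeR adjusted p = 0.0011). By FPKM, whose scaling differs, the groups of PLXNA1 overlapped by a narrow margin (lowest PBS sample 14.5, highest rhSema3C sample 14.6). PLXNA3 had 38.3, 50.3 and 47.4 CPM with PBS and 52.1, 46.4 and 53.9 CPM with rhSema3C. These groups overlapped, and the log2 fold change was 0.16 with a 95% confidence interval of -0.04 to 0.37 (edgeR adjusted p = 0.15).

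PLXNB2 also fell. It had 273.6, 309.8 and 294.6 CPM with PBS and 233.5, 215.2 and 236.3 CPM with rhSema3C. The groups were separate, with a log2 fold change of -0.36 (standard error 0.05, edgeR adjusted p = 0.00016). PLXNB1, the other class B plexin among the members and a receptor of SEMA4D, lay between 29.2 and 31.4 CPM in all 6 samples. Its log2 fold change was -0.03 with a 95% confidence interval of -0.17 to 0.11 (edgeR adjusted p = 0.70). PLXNB3, also of class B, was not a member and is counted below with the membrane partners. It had 0.752 FPKM with PBS and 1.02 with rhSema3C, a log2 fold change of 0.34 (edgeR adjusted p = 0.081). With the GC and length correction given below, PLXNB3 was at 0.62 (edgeR adjusted p = 0.0041).

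PLXNC1, the receptor of SEMA7A, had 12.3, 12.2 and 14.8 CPM with PBS and 15.9, 15.1 and 15.3 CPM with rhSema3C. All treated samples were above all controls, but the log2 fold change of 0.24 (standard error 0.10, edgeR adjusted p = 0.062) did not pass. Without PBS replicate 3, the highest control, it was 0.33 (edgeR adjusted p = 0.015). PLXND1, known from blood vessels as a receptor of SEMA3E, had 28.5, 35.2 and 31.3 CPM with PBS and 33.0, 30.5 and 29.4 CPM with rhSema3C. The groups overlapped, with a log2 fold change of -0.03 and a 95% confidence interval of -0.22 to 0.15 (edgeR adjusted p = 0.75).

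**Figure D2:**
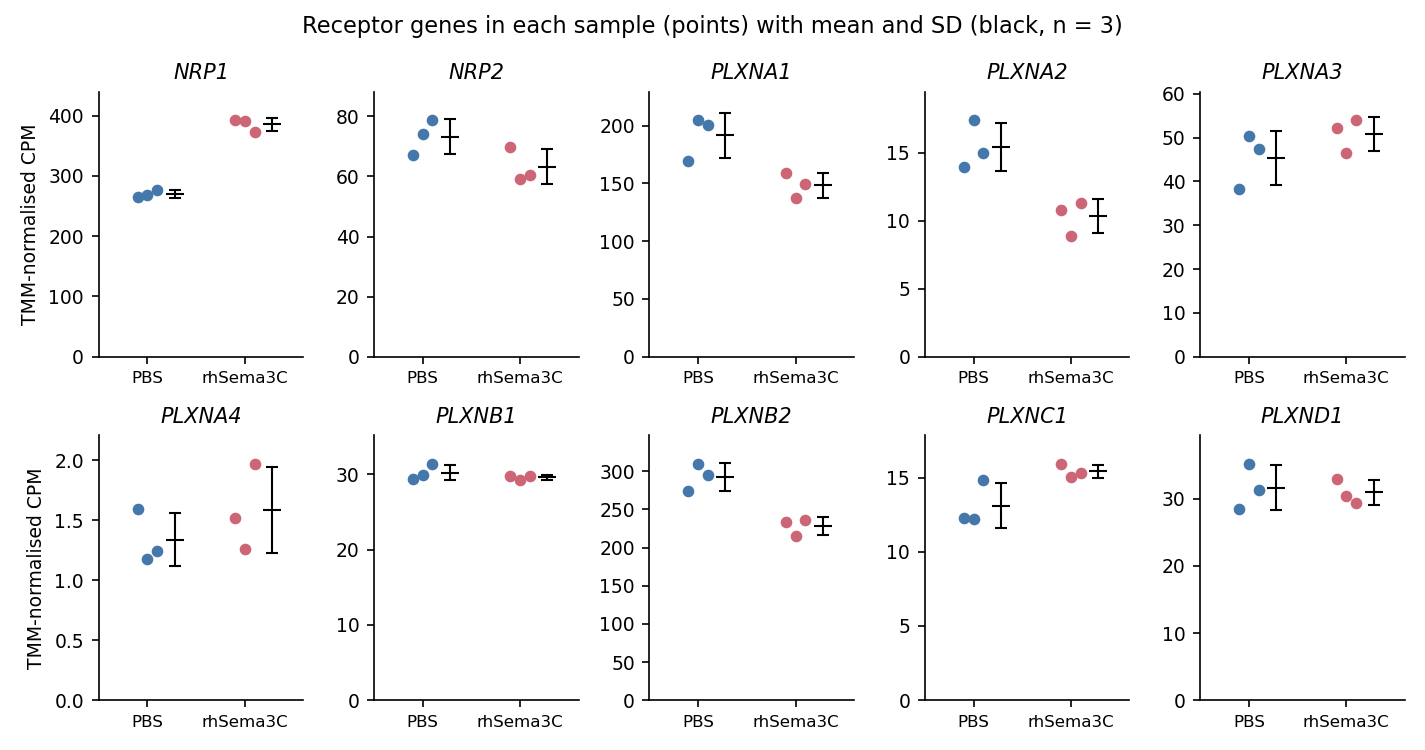
TMM-normalised CPM of each receptor gene in the 3 PBS and 3 rhSema3C samples (points), with the mean and SD of each group in black and every axis starting at 0. The groups are separate for NRP1, PLXNA1, PLXNA2, PLXNB2 and PLXNC1, and overlap for the other 5 genes.

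In all, 5 of the 9 receptor genes tested were called at an adjusted p of 0.05, where 62.3% of the genes tested across the table were called. The 1 gene called higher was NRP1 (31.7% of all genes tested were higher) and the 4 called lower were NRP2, PLXNA1, PLXNA2 and PLXNB2 (30.6% lower). The share of members called was thus near that of all genes, and the same holds for the 5 of 9 whose groups did not overlap, against 67.8% over all genes. At a fold change of at least 1.5 beside the adjusted p, 0 of the 9 passed, where 21% of all genes did, and at a fold change above 2 with an unadjusted p of 0.05, 0 passed where 5.54% did. The first of these results depended on the scaling, since NRP1 and PLXNA2 passed the 1.5-fold limit in some other fits. NRP1 was at a log2 fold change of 0.62 with library size alone, and PLXNA2 at -0.59 with DESeq2, both called. With the GC and length correction given below they were at 0.36 and -0.40, under that limit. At the unadjusted p alone, 6 of the 9 passed, where 65.8% of all genes did. The median log2 fold change was -0.03 over the 9 members and 0.02 over all genes tested. With library size alone as the scaling, which moved that median of all genes to 0.13, the calls were 3 higher (NRP1, PLXNA3 and PLXNC1) and 3 lower (PLXNA1, PLXNA2 and PLXNB2), where 39.9% of all genes were higher and 24.1% lower.

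The fold changes of all genes varied with the GC content of their transcripts, and those of the receptor genes have to be read beside this. The median log2 fold change was 0.32 for the 2122 genes below 40% GC, 0.27 for those from 40% to 45%, 0.04 from 45% to 50% and -0.16 from 50% to 55%. It was -0.29 both from 55% to 60% and from 60% to 65%. NRP1 lay 0.25 above the median of its GC class and PLXNA2 lay 0.41 below its own. PLXNA1, PLXNB2 and NRP2 lay within 0.07, 0.06 and 0.05 below theirs. PLXNA3 lay 0.46 above the median of its class, PLXNB1 0.27 above, PLXND1 0.26 above and PLXNC1 0.19 above.

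When the trend of each library with GC content and transcript length was removed, the set of calls changed. NRP1 kept its rise at a log2 fold change of 0.36 (edgeR adjusted p = 4.1e-06) and PLXNA2 its fall at -0.40 (edgeR adjusted p = 0.0062). The falls of PLXNA1, PLXNB2 and NRP2 no longer passed, at -0.09, -0.07 and -0.13 (edgeR adjusted p = 0.15, 0.10 and 0.098). PLXNA3, PLXNB1 and PLXND1 were now called higher, at 0.41, 0.26 and 0.25 (edgeR adjusted p = 0.00068, 0.0029 and 0.012), and PLXNC1 was at 0.17 (edgeR adjusted p = 0.13). With this correction 4 members were higher and 1 was lower, where 55.9% of all genes tested were called, 27.1% higher and 28.7% lower. The rise of NRP1 and the fall of PLXNA2 were therefore the calls shared by both fits. Whether the dependence on GC content arose in the libraries or in the cells was not tested.

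**Figure D3:**
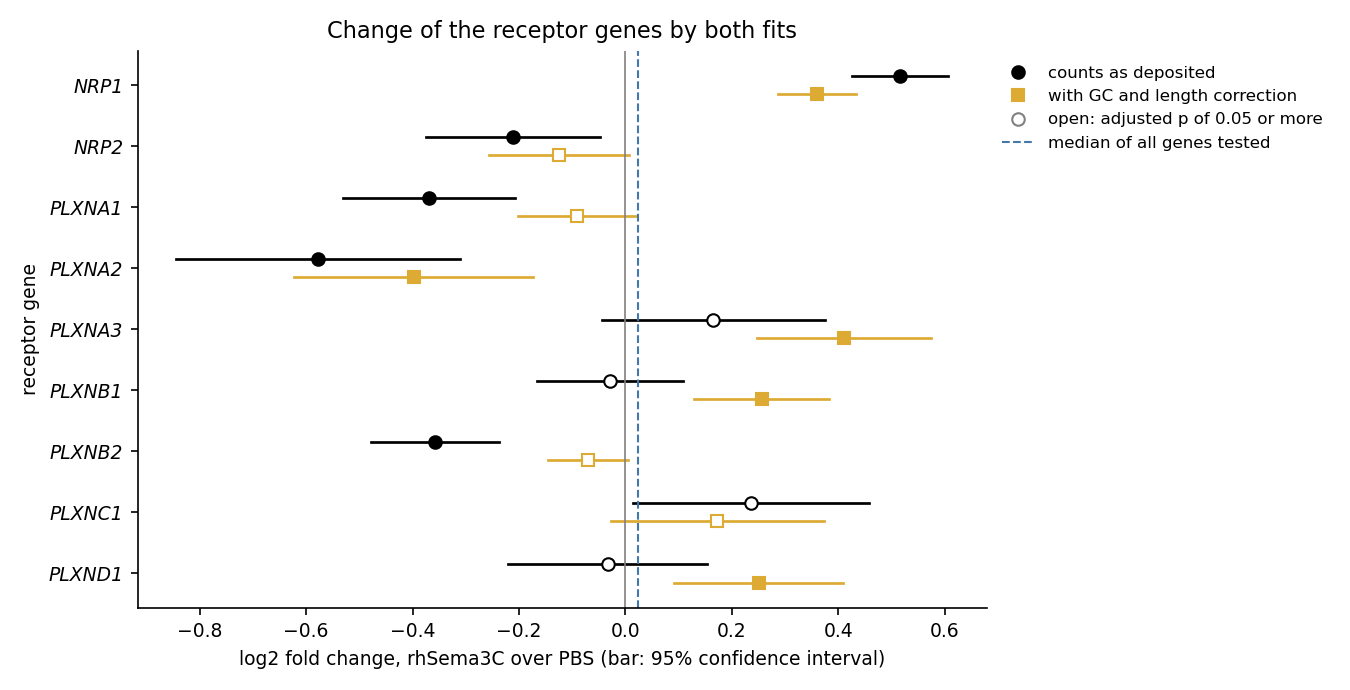
Log2 fold change with its 95% confidence interval for the 9 receptor genes tested, from the counts as deposited (black circles) and with the GC and length correction (yellow squares), filled where the adjusted p was below 0.05. NRP1 and PLXNA2 are filled in both, PLXNA1, PLXNB2 and NRP2 in the first alone, and PLXNA3, PLXNB1 and PLXND1 in the second alone.

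NRP1 held a larger share of the family with rhSema3C, given here as a description of FPKM with no test. NRP1 made up 82.6%, 81.4% and 81.0% of the summed FPKM of the neuropilins in PBS replicates 1 to 3, against 87.1%, 88.8% and 88.2% with rhSema3C. The ratio of NRP1 to NRP2 went from 4.46 ± 0.267 to 7.40 ± 0.598 (SD, n = 3), and the groups did not overlap. Among the 8 plexins, PLXNB2 held 57.1% ± 0.983 with PBS and 54.2% ± 0.648 with rhSema3C, and PLXNA1 held 24.8% ± 0.797 and 23.4% ± 0.677. PLXNA3 went from 5.47% ± 0.362 to 7.48% ± 0.250. The sum of the neuropilins went from 26.9 ± 0.981 to 38.3 ± 1.05 FPKM, while that of the 8 plexins went from 66.1 ± 4.73 to 58.3 ± 3.03 FPKM. The ratio of neuropilins to class A plexins was 1.40, 1.17 and 1.26 with PBS, against 1.97, 2.22 and 1.92 with rhSema3C, so all treated samples were above all controls. The class A sum itself overlapped between the groups, at 18.6, 22.7 and 22.2 FPKM with PBS and 19.9, 17.3 and 19.4 with rhSema3C. These sums and ratios carry no GC correction. With it, the changes of PLXNB2 and PLXNA1 were -0.07 and -0.09 and not called, and that of NRP1 was 0.36.

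The genes whose profile over the 6 samples was most like that of NRP1 were BNC1, BBS2, FAM114A1 and IL1B, out of 6970 genes with a mean of at least 5 FPKM. Their root-mean-square differences from NRP1, in log2 CPM centred on the mean of each gene, were 0.016, 0.024, 0.026 and 0.028. BNC1, which encodes a zinc finger protein of epithelial and germ cells, went from 39.8, 41.1 and 41.9 to 59.5, 58.0 and 56.7 CPM. IL1B, the inflammatory cytokine interleukin-1 beta, went from 926.1, 924.2 and 948.9 to 1379, 1319 and 1338 CPM. The 6 samples form 2 groups, so the likeness mostly says that these genes had nearly the same fold change and little spread.

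The ligands of these receptors moved in both directions. Of 24 semaphorin and VEGF family genes, 15 were tested, of which 4 were higher and 6 lower (31.7% and 30.6% of all genes tested), with a median log2 fold change of -0.02 beside 0.02 over all genes. VEGFA, a ligand that binds neuropilins as well as VEGF receptors, went from 7.51 ± 0.366 to 21.6 ± 0.881 FPKM, a log2 fold change of 1.42 (standard error 0.05, edgeR adjusted p = 4.3e-09). SEMA5A (log2 fold change 0.83) and SEMA4B (0.33), both membrane-bound semaphorins, also rose. SEMA6B, a ligand of class A plexins, fell by 0.84 on the log2 scale, and SEMA7A, the ligand of PLXNC1, went from 52.8 ± 1.16 to 33.9 ± 1.20 FPKM, a log2 fold change of -0.74. VEGFB, a ligand of FLT1 and NRP1, fell by 0.44 on the log2 scale. All 6 of these calls held with the GC and length correction, which gave 7 ligands higher and 5 lower (27.1% and 28.7% of all genes), with a median of 0.28.

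The cells carried mRNA of SEMA3C, whose protein was the treatment, at 11.5 ± 0.551 FPKM with PBS and 11.5 ± 0.635 FPKM with rhSema3C. Added protein is not seen by this assay. The log2 fold change of SEMA3C was -0.10 (edgeR adjusted p = 0.15), at or just above 0 with library size alone, limma on FPKM or the genes of at least 5 FPKM, and -0.40 with the GC and length correction (edgeR adjusted p = 5.5e-06). The gene for Sema3A, a further ligand of NRP1, was at 0.310 FPKM with PBS and 0.630 with rhSema3C (SEMA3A, with no overlap between groups) and was too low to enter the test. Of the other class 3 semaphorins below the test limit, SEMA3D also rose (0.199 to 0.386 FPKM), SEMA3E fell (0.0655 to 0.0508) and SEMA3G was near 0. SEMA3B was called higher (log2 fold change 0.22, edgeR adjusted p = 0.020) and SEMA3F was not called (-0.02, edgeR adjusted p = 0.85). With the GC and length correction both were called higher (0.51 and 0.28).

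Of 19 membrane proteins known to associate with neuropilins or plexins, 15 were tested, of which 2 were higher and 6 lower (median log2 fold change -0.10), where 31.7% of all genes tested were higher and 30.6% lower. The 2 that rose were TGFBR1, a TGF-β receptor (log2 fold change 0.40), and L1CAM, a neural adhesion molecule that associates with NRP1 (0.34). The largest falls were in the VEGF receptor FLT4 (-0.59), the receptor kinase ERBB2 (-0.35), which pairs with class B plexins, and the integrin subunit ITGA5 (-0.28). With the GC and length correction L1CAM (0.64) and FLT4 (-0.29) were still called, and TGFBR1, ERBB2 and ITGA5 were not (0.08, -0.07 and -0.06, edgeR adjusted p = 0.21, 0.11 and 0.13). ITGB1, the integrin beta 1 subunit, was the most abundant of this list at 223.2 ± 6.76 FPKM with PBS and 232.9 ± 13.6 FPKM with rhSema3C. Its log2 fold change was -0.04 (edgeR adjusted p = 0.46), above 0 with library size alone (0.07), and -0.33 with the GC and length correction (edgeR adjusted p = 2.1e-06), so its direction depended on the scaling.

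Of 40 intracellular effectors of plexin signalling, 39 were tested, of which 12 were higher and 17 lower (median log2 fold change -0.06), where 31.7% of all genes tested were higher and 30.6% lower. RND3, a small GTPase that binds plexins, went from 52.9 ± 2.63 to 129.1 ± 12.8 FPKM, a log2 fold change of 1.18 (standard error 0.07, edgeR adjusted p = 9.2e-08). PTK2, the focal adhesion kinase, and FYN, a Src family kinase that acts downstream of class A plexins, rose by 0.49 and 0.47 on the log2 scale. CFL1, which encodes the actin-severing protein cofilin, went from 416.8 ± 8.65 to 233.6 ± 2.40 FPKM, a log2 fold change of -0.94 (standard error 0.04, edgeR adjusted p = 7.4e-09). RHOD, a small GTPase that binds class A plexins, fell by 0.77 and FES, a tyrosine kinase linked to class A plexins, fell by 0.63 on the log2 scale. All 6 of these effectors kept their direction and their call with the GC and length correction, under which 9 of the list were higher and 16 lower (27.1% and 28.7% of all genes).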

How the data were processed

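RNA of 3 rhSema3C-treated and 3 PBS-treated LX-2 samples was sequenced from mRNA libraries, per the labels. The deposited table holds whole-number counts without normalisation and FPKM, which the authors scaled by length and library size. Counts worked back from FPKM lay slightly under the deposited counts, so fractional estimates seem to have been rounded up. The study's methods name Cufflinks and cuffmerge, and the aligner, counting tool, strand setting and genome build are not given in the sources used here. Replicates are labelled as biological, but separate cultures are not described, so p-values cover the spread between these samples.

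Groups came from the sample titles, and no sample column was left unused. Genes with a mean of at least 0.5 FPKM over the 6 samples were tested (14178) by the quasi-likelihood test of edgeR with TMM factors and Benjamini-Hochberg adjustment over all of them, with calls at an adjusted p of 0.05. TMM factors ran from 0.958 to 0.968 for PBS and from 1.03 to 1.04 for rhSema3C, and the common biological coefficient of variation was 0.117. Replicate pairs differed by more than counting noise (chi-square per degree of freedom from 15.9 to 27.6). GC content and length came from the longest GENCODE transcript (99.42% of tested genes) and were removed per library by a spline fit with 4 degrees of freedom. Simulated counts with known changes in a small part of the genes, and no trend with GC content, were put through each test. They cannot show how the tests act where most genes change or follow GC content, as here. An exact permutation test of 3 against 3 cannot go below p = 0.1 for a single gene.

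The members, lists and tests were chosen with earlier results of these data known. Named genes were all members, ITGB1 and SEMA3C, and, from each of the ligand, partner and effector lists, up to 3 of the largest rises and 3 of the largest falls among called genes with a mean of at least 1 FPKM and no overlap between groups, plus the 4 genes most like NRP1. SEMA3A and the class 3 semaphorins given beside it, PLXNB3 and the marker genes are outside this rule, and were picked with their values known. Alternatives covered scaling, DESeq2, limma on log2(FPKM + 1) and log2(FPKM + 0.1), the filter, a replicate block, the GC and length correction and each sample left out. Software was edgeR 4.0.16, DESeq2 1.42.0 and limma 3.58.1 in R 4.3.3, with matplotlib 3.10.9 for plots.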

Additional observations from a re-analysis of the deposited data

How the results depend on the processing

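Across the alternatives, 616 of 709 recomputed values were rated the same as in the main form. For a fold change this meant the same direction and side of the threshold. For a level or share it meant a difference below the replicate SD. Leaving out a sample can never move a group mean by that much, so those ratings were fixed in advance and show no stability. For a count of called genes the same rating meant a count within 1.5-fold of the main count. Reversed meant a change of sign, weaker a lost call, stronger a gained call, and moved a level, share or count outside its limit. Of the values on receptor genes, list counts and shares, 284 were the same, 40 moved, 12 reversed, 14 weaker and 7 stronger. Of those on other named genes and on all genes, 332 were the same, 2 moved, 8 reversed, 6 weaker and 4 stronger. NRP1 stayed higher and called in every alternative (log2 fold change from 0.36 to 0.62, and from 0.50 to 0.54 with each sample left out), and PLXNA2 stayed lower and called wherever it was tested (-0.59 to -0.22, and -0.65 to -0.48). With each sample left out PLXNA1 ran from -0.45 to -0.31, PLXNB2 from -0.40 to -0.32, NRP2 from -0.29 to -0.16, PLXNA3 from 0.06 to 0.25, PLXNB1 from -0.05 to -0.0015, PLXNC1 from 0.19 to 0.33 and PLXND1 from -0.10 to 0.05. PLXND1 changed sign without PBS replicate 2 (0.049) and without rhSema3C replicate 3 (0.0033). The number of receptor genes called higher ran from 1 to 2 in these fits. Depth limits PLXNA4, with at most 164 counts in a sample, and the rounding of its counts was not tested.

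With library size alone, NRP2 was at -0.10 and not called, PLXNA3 at 0.27 and PLXNC1 at 0.34 were called, PLXNB1 (0.080), PLXND1 (0.076), ITGB1 (0.068) and SEMA3C (0.013) turned positive, 3 receptor genes were higher, and 4 partners were higher and 3 lower. With limma on log2(FPKM + 1) NRP2 was at -0.090 and not called, PLXNC1 at 0.20 was called, and PLXNB1 (0.055), PLXND1 (0.055), ITGB1 (0.060) and SEMA3C (0.0063) turned positive. With a pseudocount of 0.1 the values were -0.11, 0.32, 0.071, 0.071, 0.060 and 0.0067 in the same order. Both limma fits called 2 receptor genes higher, 11 effectors lower and 3 partners lower. With no filter NRP2 was at -0.22 and not called. With a mean of at least 5 FPKM, 2 receptor genes were lower, 8 effectors and 2 partners were lower, ITGB1 was at 0.064 and SEMA3C at 0.0097, and 2630 of all genes were higher and 2602 lower, since fewer genes were tested. With the GC and length correction, not called any more were NRP2 (-0.13), PLXNA1 (-0.091) and PLXNB2 (-0.071), called were PLXNA3 (0.41), PLXNB1 (0.26) and PLXND1 (0.25), 4 receptor genes were higher and 1 lower, and 7 ligands were higher. Apart from the filter, the cause of these changes was not tested.

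No sign of pairing by replicate number was seen. The deviations of same-numbered samples correlated at -0.004, 0.058 and -0.027, and those of differently numbered samples at -0.070 to 0.071. Low correlations cannot show how the cultures were handled, so pairing is not excluded. The replicate block gave 1 receptor gene higher and 4 lower, as without it, and changed the call of 0 of the 28 single genes named in the report that it was run on. It called 15 effectors lower in place of 17, and over all genes 4221 higher and 4120 lower in place of 4490 and 4339. The replicate block with the GC and length correction gave NRP2 -0.13, PLXNA1 -0.090, PLXNA3 0.41, PLXNB1 0.26, PLXNB2 -0.070 and PLXND1 0.25, with 4 receptor genes higher and 1 lower.

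Rescaled to TPM, the PBS levels were 75.3 for NRP1, 16.9 for NRP2, 56.4 for PLXNA1, 3.58 for PLXNA2, 12.5 for PLXNA3, 0.260 for PLXNA4, 9.93 for PLXNB1, 129.4 for PLXNB2, 4.19 for PLXNC1 and 10.6 for PLXND1, in the same order. Scaled to the longest transcript, they were 44.0 for NRP1, 10.6 for NRP2, 20.3 for PLXNA1, 1.30 for PLXNA2, 0.0929 for PLXNA4, 3.97 for PLXNB1, 44.0 for PLXNB2, 1.71 for PLXNC1 and 4.28 for PLXND1. The share of NRP1 among neuropilins with PBS was then 80.7%, and that of PLXNB2 among plexins 55.3% with PBS and 52.3% with rhSema3C.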
